A study of Oryza sativa with 12 samples.

Results

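The ethylene receptor genes of rice (Oryza sativa) were followed in cells growing in suspension culture that had been moved to medium lacking sucrose. They were chosen by name, as every gene whose symbol or synonym in the gene annotation is ETR or ERS followed by a number. The rule found 5 of the 15798 genes measured, namely ERS1 (LOC4333832), ERS2 (LOC4337850), ETR2 (LOC4335058), ETR3 (LOC4331174) and ETR4 (LOC4342865), on 6 probes. ETR3 had 2 probes, which were averaged, and the other receptors had 1 each. Positions in the genome are not given, because no source used here gives the build behind the array.

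Ethylene receptors are proteins of the endoplasmic reticulum that resemble bacterial histidine kinases. Without ethylene they keep a CTR-type kinase active, which holds down EIN2 and the EIN3-like transcription factors, so a plant with more receptor needs more ethylene to respond. The ERS-type receptors of rice belong to the subfamily with a canonical histidine kinase domain, while ETR2, ETR3 and ETR4 belong to the subfamily in which that domain is degenerate. Rice is known for using ethylene in flooded tissue, in roots and in grain filling.

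Starved cells were kept in Murashige and Skoog medium with no sucrose for 12, 24 or 48 h and set against cells given 3% sucrose for as long. In a further set, cells starved for 12 h were set against cells that also had no sucrose but had 88 mM sorbitol, the osmotic control. Each of these 4 groups had 3 arrays, and each of the 12 arrays carried starved cells in Cy5 and control cells in Cy3, with no dye swap. The labels give no cultivar and do not tell if replicate arrays stand for separate cultures. The p-values therefore measure the spread from array to array, part or all of which may be technical.

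Every value is a log2 ratio of starved over control cells. It is no level, so it does not say which receptor was the most abundant, and with RNA from whole cultures, fewer cells of a type and less RNA per cell cannot be told apart. Dye bias of a probe stays in each ratio and cancels only in differences between groups, as far as it was equal on the arrays. For the sucrose arrays the direction of the ratio is likely the one given, since the starvation-induced alpha-amylase genes RAmy3D and RAmy3E had ratios of 2.34 ± 1.36 and 2.93 ± 1.06 at 12 h (SD, n = 3). Against sorbitol they stood at 0.03 ± 0.03 and -0.28 ± 0.19, so there the sign rests on the dye labels alone. All 5 receptors had a value on all 12 arrays. The sorbitol arrays varied less over probes (SD of log2 ratios 0.30 to 0.38) than the sucrose arrays (0.64 to 1.26), and replicate 2 at 48 h had both the widest spread and the most blank cells, 13.6%.

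ETR4 stood apart from the other receptors through the sorbitol arrays. Against sorbitol its log2 ratios were 1.29, 1.43 and 1.60 in replicates 1 to 3, a mean of 1.44 ± 0.15 (SD, n = 3) or 2.71-fold more RNA in starved cells than in sorbitol cells. Against sucrose after the same 12 h they were -0.24, -0.44 and -0.89, a mean of -0.52 ± 0.33. All sorbitol arrays were positive and all 12 h sucrose arrays negative, with a gap of 1.53 between the nearest arrays of the groups.

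The difference between these groups was tested directly. The ETR4 ratio against sucrose minus that against sorbitol was -1.96 (SE 0.39, 95% interval -2.81 to -1.12), a 3.90-fold difference that passed limma's test across all features (adjusted p = 0.0301). If the starved cells of both sets were alike, this is ETR4 in sorbitol cells over ETR4 in sucrose cells. ETR4 was the only 1 of the 5 receptors to pass, and over all 18260 features 1.46% passed, 0.455% in its direction. Groups that did not overlap were common in this comparison, at 30.7% of features, so the lack of overlap alone says little. The adjusted p rose above 0.05 when any 1 of the 6 arrays was left out, to between 0.0510 without 12 h replicate 2 and 0.166 without sorbitol replicate 3, while the difference stayed between -2.10 and -1.78. The log base of the sorbitol columns does not show in their values. If all deposited values were log2 and not natural logs, the difference would be -1.36 and the ratio against sorbitol 1.00, with the same p-values.

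**Figure D1:**
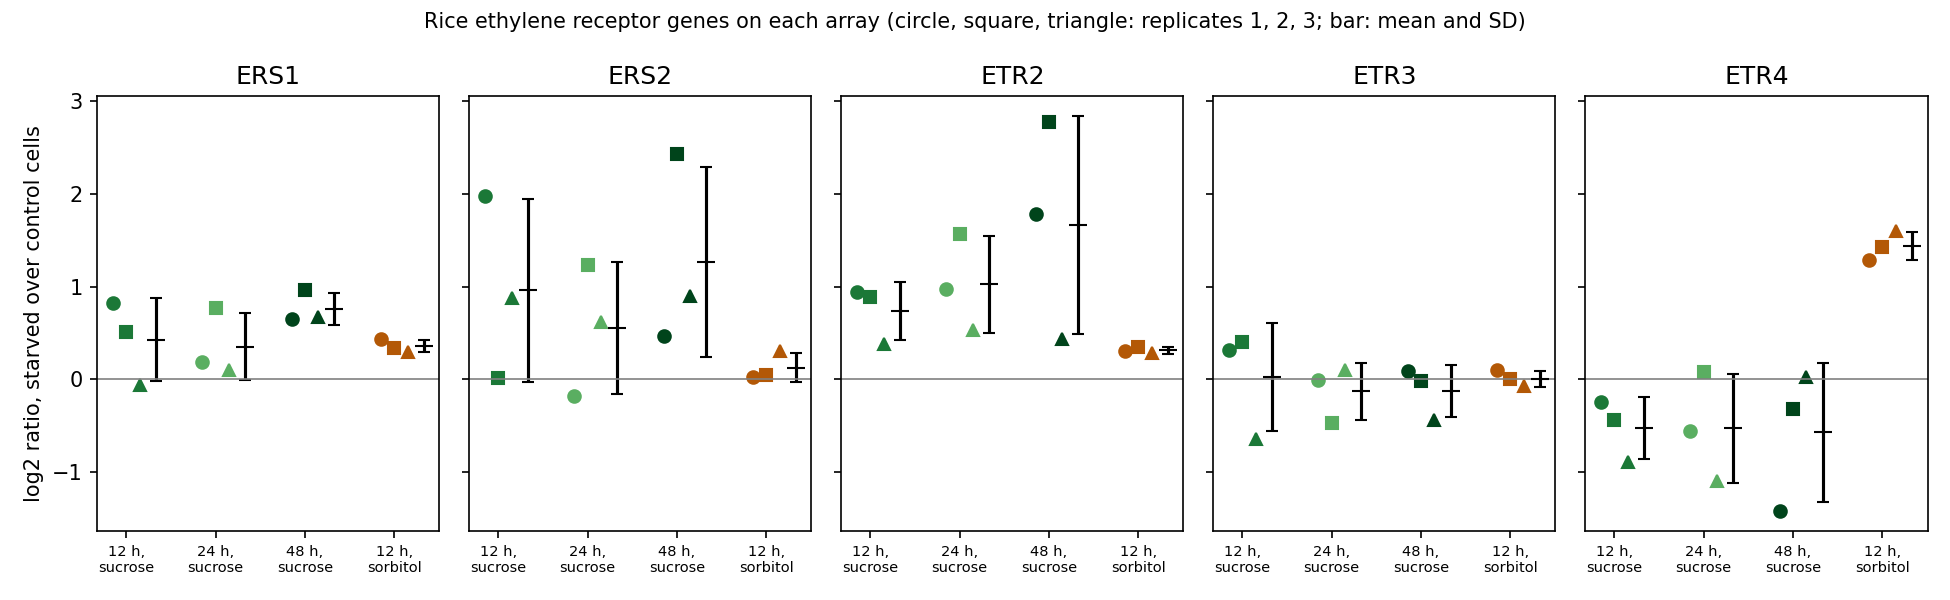
Log2 ratios of starved over control cells for the 5 receptor genes on each of the 12 arrays (vertical axis), by time and control medium (horizontal axis). Circles, squares and triangles are replicates 1, 2 and 3, and bars give the mean ± SD of 3 arrays. The 3 ETR4 points against sorbitol, from 1.29 to 1.60, lie above all 9 of its points against sucrose.

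Tested by itself against 0, the ETR4 ratio against sorbitol did not pass (limma, adjusted p = 0.132, unadjusted p = 0.000183, 95% interval 0.85 to 2.03). Only 10 of 19435 features passed there, or 0.0515%, all higher. The fit shared 1 estimate of spread over all groups. With the sorbitol arrays fitted alone, the same 1.44 had an adjusted p of 4.4e-06, although 6979 features passed then. By size, 32 features had a higher mean ratio against sorbitol than ETR4. On the single sorbitol arrays it stood at the 99.9th, 99.8th and 99.8th percentile of all features, and on the 12 h sucrose arrays at the 36.6th, 19.8th and 11.2th.

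The longer sucrose arrays gave ETR4 ratios of -0.56, 0.08 and -1.10 at 24 h and of -1.42, -0.32 and 0.02 at 48 h. Their means of -0.53 ± 0.59 and -0.57 ± 0.75 were close to the 12 h mean, and none of the 3 passed (limma, adjusted p = 0.260 at 12 h, 0.244 at 24 h and 0.146 at 48 h). In all, 7 of 9 sucrose arrays were below 0. The highest sucrose array, at 0.08, was 1.21 under the lowest sorbitol array. Sorbitol arrays lay above all sucrose arrays in 5.82% of the 16800 features with a value on every array. In order of the mean ratio, ETR4 went from 48 h through 24 h and 12 h against sucrose, which overlapped each other, to 12 h against sorbitol.

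No other receptor followed this pattern. Against sorbitol, ERS1 had ratios of 0.43, 0.34 and 0.30, ETR2 of 0.30, 0.35 and 0.28, ERS2 of 0.03, 0.04 and 0.30, and ETR3 of 0.10, 0.00 and -0.07. These genes were thus close to even between starved and sorbitol cells, or slightly higher in starved cells, and none passed (limma, adjusted p from 0.817 to 0.998). Their 12 h sucrose minus sorbitol differences were 0.07 for ERS1 (95% interval -0.54 to 0.67), 0.43 for ETR2 (-0.60 to 1.46), 0.83 for ERS2 (-0.38 to 2.04) and 0.02 for ETR3 (-0.65 to 0.68). The intervals of ERS2 and ETR2 leave room for differences of over 1 on the log2 scale, so differences of that size in these 2 lie within the error of 3 arrays.

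**Figure D2:**
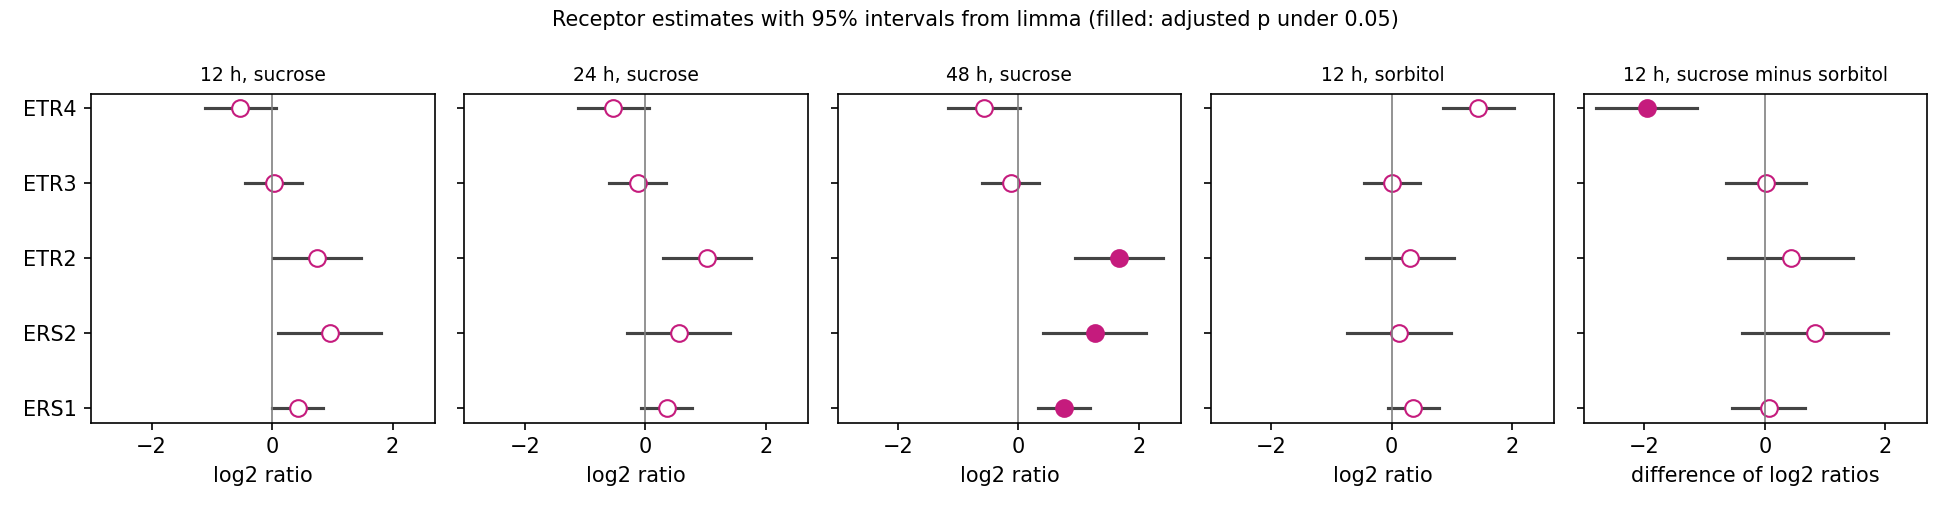
Mean log2 ratio of each receptor in the 4 groups and its 12 h sucrose minus sorbitol difference (horizontal axes, log2), with 95% intervals from limma as lines, filled where the adjusted p was under 0.05. Filled points are ERS1, ERS2 and ETR2 at 48 h against sucrose and ETR4 in the difference, which lies at -1.96.

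Against sucrose, 3 of the 5 receptors rose at 48 h and none fell, where 25.5% of all features passed, 12.4% higher and 13% lower. At 12 and at 24 h none of the 5 passed in limma (2 and 1 of them had an unadjusted p under 0.05, all higher), where 9.09% and 8.6% of features passed. The median ratio of the 5 was 0.43 at 12 h, 0.35 at 24 h and 0.76 at 48 h, beside medians of 0.00, 0.00 and 0.01 over all features. Against sorbitol it was 0.31, beside 0.00.

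ETR2 had the largest of these rises. In other work, rice plants with more ETR2 flowered late and kept starch in their stems. Its log2 ratios were 0.95, 0.89 and 0.38 at 12 h, 0.97, 1.57 and 0.53 at 24 h and 1.79, 2.77 and 0.43 at 48 h. All 9 sucrose arrays and all 3 sorbitol arrays were above 0, as in 5.21% of features. The 48 h mean was 1.66 ± 1.17, or 3.16-fold (limma, adjusted p = 0.00445), against 1.02 ± 0.52 at 24 h (adjusted p = 0.0778) and 0.74 ± 0.31 at 12 h (adjusted p = 0.195). On the sucrose arrays ETR2 stood between the 69.8th percentile of features, in 12 h replicate 3, and the 97.4th, in 48 h replicate 2.

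ERS1 had ratios of 0.83, 0.51 and -0.06 at 12 h, 0.19, 0.77 and 0.10 at 24 h and 0.65, 0.96 and 0.68 at 48 h. Only the 48 h arrays lay close together, and their mean of 0.76 ± 0.17 (1.70-fold) passed (limma, adjusted p = 0.0158). The means of 0.43 ± 0.45 at 12 h and 0.35 ± 0.36 at 24 h did not (adjusted p = 0.204 and 0.273).

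ERS2, the other receptor of that subfamily, varied widely between arrays at each time. It had 1.98, 0.02 and 0.88 at 12 h, -0.18, 1.23 and 0.62 at 24 h and 0.47, 2.43 and 0.90 at 48 h. The 48 h mean was 1.27 ± 1.03, or 2.41-fold (limma, adjusted p = 0.0338), and that at 12 h was 0.96 ± 0.98 (adjusted p = 0.153). Within each sucrose group the highest and the lowest array differed by over 1, so ERS2 had no clear order over the times.

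These 3 rises rested in part on replicate 2 at 48 h, the array with the widest spread, which held the highest 48 h value of all 3 genes. Without it the means were 1.11 for ETR2 (limma, adjusted p = 0.0546), 0.66 for ERS1 (adjusted p = 0.113) and 0.69 for ERS2 (adjusted p = 0.326). With only the 48 h arrays in the fit none of the 3 passed (adjusted p = 0.0869, 0.108 and 0.120), and with only the sorbitol arrays left out ETR2 passed (adjusted p = 0.0165) while ERS1 and ERS2 did not (0.0526 and 0.0731).

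ETR3 showed no change that these arrays could detect. Its ratios were 0.32, 0.40 and -0.64 at 12 h, -0.01, -0.47 and 0.10 at 24 h and 0.09, -0.02 and -0.44 at 48 h. The means of 0.03 ± 0.58, -0.13 ± 0.31 and -0.12 ± 0.28 lay on both sides of 0 (limma, adjusted p = 0.958, 0.754 and 0.709). Its probes disagreed in sign, with -0.15 at 12 h on probe 250, and with 0.13 at 48 h and -0.10 against sorbitol on probe 18366, each against the sign of the average. The 95% interval of the average at 48 h ran from -0.60 to 0.35.

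No receptor was shown to differ between times. From 12 to 48 h the change in log2 ratio was 0.92 for ETR2 (limma, adjusted p = 0.548, 95% interval -0.11 to 1.96), 0.34 for ERS1, 0.31 for ERS2, -0.15 for ETR3 and -0.05 for ETR4 (adjusted p from 0.722 to 0.980). Arrays at 12 h and at 48 h overlapped for all 5. Over all features 11.1% had groups that did not overlap, so none among 5 is near that share. Limma called 1 of 16824 features in this difference (0.00594%), and 0 from 12 to 24 h (0%) and from 24 to 48 h (0%), where 695 and 487 had an unadjusted p under 0.05. With the replicate number as a block in the 24 and 48 h arrays, which deviated together by number, 1 feature was called from 24 to 48 h, and no receptor. A receptor that passed at 48 h and not at 12 h was therefore not shown to differ between those times.

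In order of the mean ratio, ETR2 ran from sorbitol (0.31 ± 0.04) through 12 and 24 to 48 h, and neighbouring sucrose times overlapped. The sorbitol arrays lay just under all 9 sucrose arrays of ETR2, by 0.03 at the closest. At 12 h alone, sucrose and sorbitol groups did not overlap in 30.7% of features, so this order by itself says little. ERS1 ran from 24 h (0.35) through sorbitol (0.36) and 12 h (0.43) to 48 h (0.76), and ERS2 from sorbitol (0.13) through 24 h (0.55) and 12 h (0.96) to 48 h (1.27). In both, 48 h overlapped with each other sucrose time and not with sorbitol. The share of all features without overlap between 48 h and sorbitol is not given here, so that separation says little too. The 4 groups of ETR3 all overlapped.

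Differences between receptors on the same array are free of anything that shifts a whole array. ETR2 minus ETR4 was 1.19, 1.33 and 1.27 at 12 h and 1.53, 1.49 and 1.63 at 24 h against sucrose, and -0.99, -1.08 and -1.31 against sorbitol. Although each gene alone varied over these arrays, their difference had an SD of 0.07 at both times, the lowest of the 10 pairs of receptors. At 48 h it was 3.20, 3.09 and 0.41, so the arrays no longer stood together. The SD of 1.58 there was the highest of the 10 pairs.

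Every other receptor was above ETR4 in ratio on all 12 h sucrose arrays and below it on all sorbitol arrays. The mean within-array difference went from 0.95 to -1.08 for ERS1, from 1.48 to -1.31 for ERS2, from 1.26 to -1.13 for ETR2 and from 0.55 to -1.43 for ETR3. An exact two-sided permutation test on each pair gave p = 0.1, which is the smallest that the 20 splits of 3 against 3 arrays allow (adjusted p = 0.167 over the 10 pairs), so these tests could not reach 0.05. ETR4 enters all 4 of these pairs, so they are not independent. Only 26, 40 and 31 features exceeded ETR4 on sorbitol replicates 1, 2 and 3, so nearly any gene would lie below it there. On the 12 h sucrose arrays 11796, 14731 and 17250 features exceeded it. Neither the change of side nor a lack of overlap was counted over pairs of all features, so both say little about the other receptors. In the other 6 pairs, ERS1 minus ETR2 and ETR2 minus ETR3 also had groups that did not overlap, with sucrose minus sorbitol shifts of -0.36 and 0.41, and the remaining 4 overlapped.

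**Figure D3:**
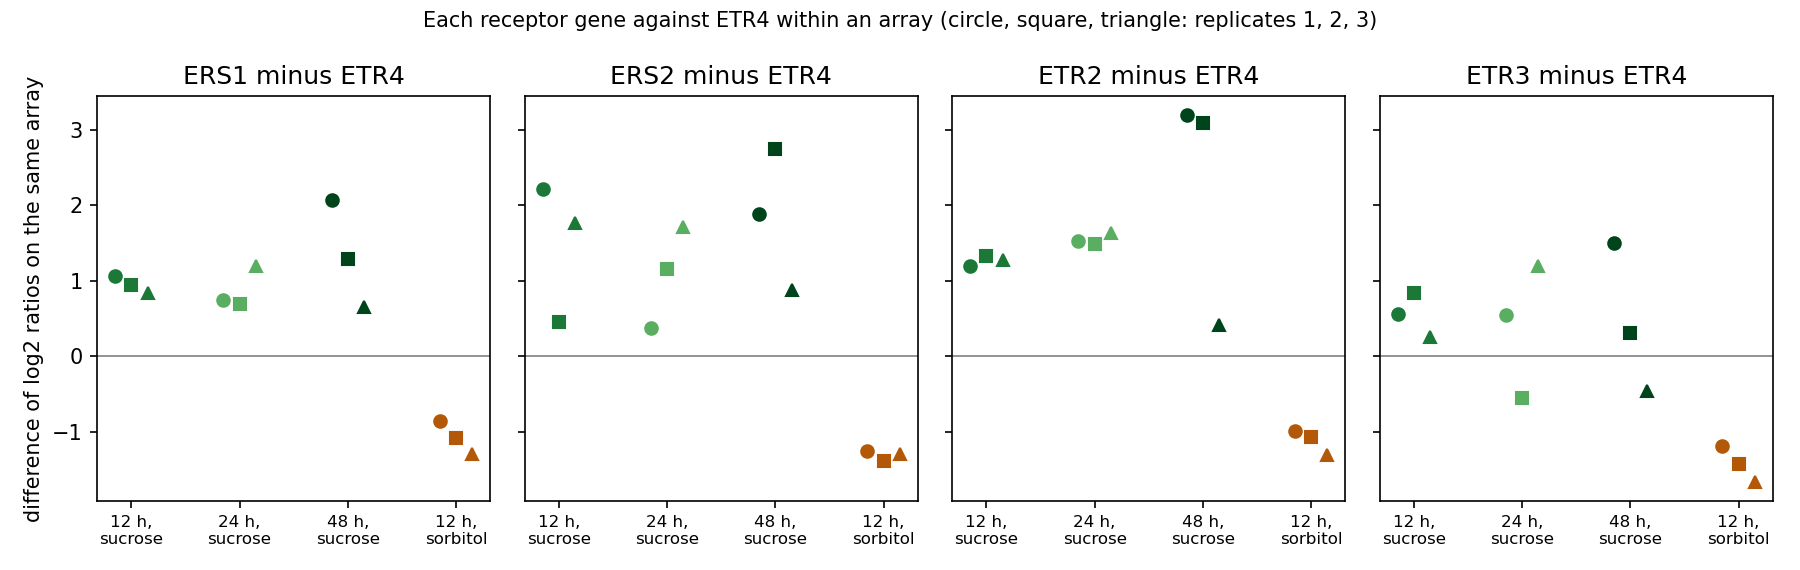
Log2 ratio of each other receptor minus that of ETR4 on the same array (vertical axis), by time and control medium (horizontal axis), with circles, squares and triangles for replicates 1, 2 and 3. All 12 h sucrose points lie above 0 and all sorbitol points below it, and the ETR2 minus ETR4 points lie between 1.19 and 1.33 at 12 h and between 1.49 and 1.63 at 24 h.

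Across the 12 arrays, ERS1, ERS2 and ETR2 varied together, with Pearson correlations of 0.68 for ERS1 with ETR2, 0.64 for ERS1 with ERS2 and 0.62 for ERS2 with ETR2. ETR4 correlated with the others between -0.42 (ETR2) and 0.01 (ERS1), and over the 9 sucrose arrays alone between -0.22 (ETR3) and 0.53 (ERS1). ETR3 had no correlation above 0.20 with any receptor over the 12 arrays. Arrays share spread and depth of the hybridisation, and arrays of a group share their treatment, so these are descriptions.

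Likeness to a receptor was measured as the Pearson correlation of log2 ratios over the 12 arrays, among 1830 named genes with a value on all of them. Nearest to ETR4 were OsPP2C08, for a type 2C protein phosphatase (r = 0.908), STLP3, for a sialyltransferase-like protein (0.902), HOX2, for a homeodomain-leucine zipper factor (0.894), AOS, for the allene oxide synthase of jasmonate synthesis (0.886), and XBOS31, for an ankyrin-repeat ubiquitin ligase (0.886). All 5 were higher against sorbitol than against sucrose in their means, for example 0.94 and -0.18 at 12 h for OsPP2C08 and 0.54 and -0.49 for AOS. The choice by likeness to ETR4 on these same arrays favours that direction, so it is no separate result. Their sizes differed from those of ETR4. STLP3 and HOX2 were near even against sorbitol (0.16 and 0.28) and far below 0 against sucrose at 12 h (-2.12 and -1.49), whereas ETR4 was far above 0 against sorbitol. Over the 9 sucrose arrays alone the correlations were 0.467 to 0.713.

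**Figure D4:**
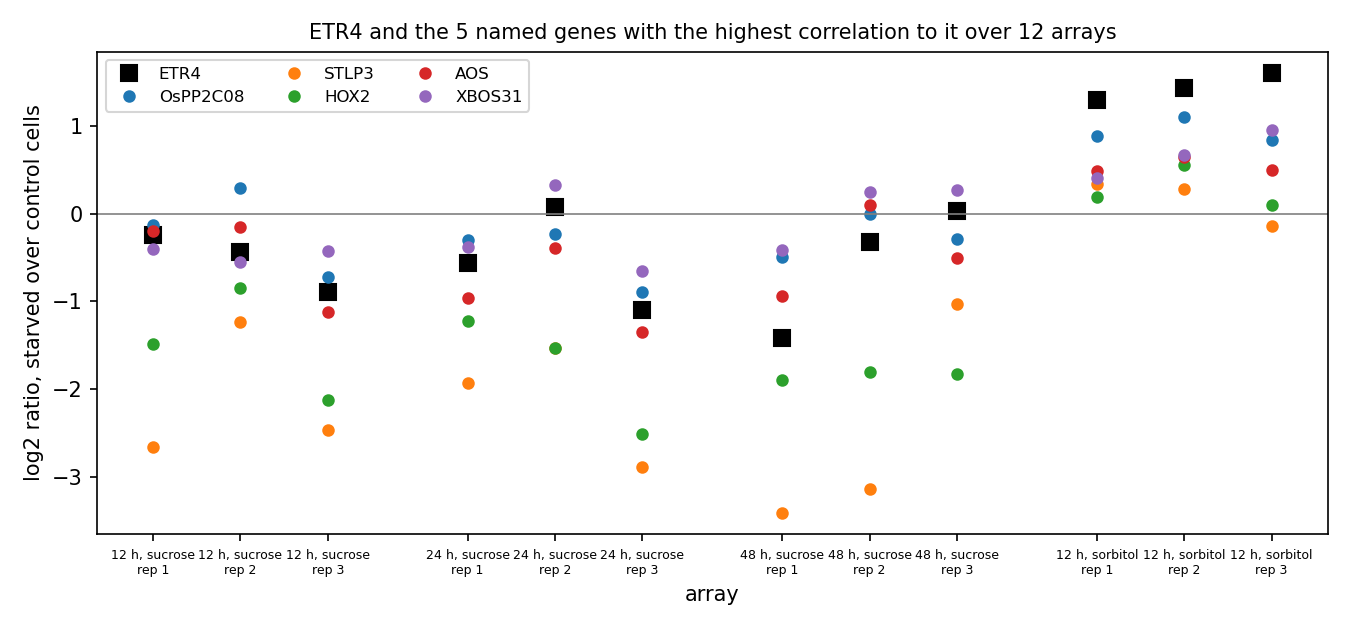
Log2 ratios of ETR4 (black squares) and of the 5 named genes whose ratios correlate best with it (coloured circles) on each of the 12 arrays (horizontal axis). None of the 5 reaches ETR4 on a sorbitol array, and HOX2 and STLP3 lie between -0.85 and -3.41 on the sucrose arrays.

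For ETR2 the nearest were WNK5, for a WNK-type kinase (r = 0.967), and NYC1, for the chlorophyll b reductase of leaf senescence (0.961), with means of 2.43 and 2.15 at 48 h. ERS1 was nearest to GRXS6, a glutaredoxin gene (0.922), and PHT1-8, a phosphate transporter gene (0.899). ERS2 was nearest to UEL-1 (0.936) and to ORR3, for a response regulator (0.926), and ETR3 to MSRB3, for a methionine sulfoxide reductase (0.927), and the actin gene AC3 (0.868). Over the 9 sucrose arrays, which were among those used to choose the genes, these correlations were between 0.920 and 0.979.

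Upstream of the receptors, 3 of 4 measured genes of ethylene synthesis fell at 48 h and 1 fell at 24 h, and none rose, with a median ratio of -1.22 at 48 h. Over all features 13% fell at 48 h, and 8.6% passed in either direction at 24 h. The ACC oxidase gene ACO1, whose enzyme makes ethylene in the last step, had -2.17, -2.17 and -1.80 at 48 h, a mean of -2.05 ± 0.22 (limma, adjusted p = 0.000957). All 3 arrays were far below 0, while at 12 h its ratios of -0.16, -1.91 and -0.09 did not stand together.

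SAM1 and SAM2 encode S-adenosylmethionine synthetases, which supply the precursor. SAM2 had -1.15, -0.85 and -1.57 at 24 h and -1.64, -1.03 and -1.70 at 48 h (limma, adjusted p = 0.00378 and 0.000484). SAM1 had -0.86, -1.04 and -1.03 at 48 h (adjusted p = 0.00243). Against sorbitol SAM1 had -0.85, -1.03 and -1.10, opposite in sign to ETR4, and did not pass (adjusted p = 0.0925). The ACC synthase gene ACS2 did not pass anywhere, with 0.35 ± 1.11 at 48 h and 0.68 ± 0.30 against sorbitol. The 48 h calls of ACO1 and SAM2 held under each alternative and left-out array tried. That of SAM1 was lost only with the 48 h arrays alone in the fit (limma, adjusted p = 0.0673). The 24 h call of SAM2 was lost only with the 24 h arrays alone in the fit (limma, adjusted p = 0.0708).

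Ethylene synthesis leaves methylthioadenosine, which the methionine cycle returns to methionine. Of its 4 measured genes, ARD1, for an acireductone dioxygenase, fell at all 3 times, by 0.69 ± 0.21 at 12 h, 1.18 ± 0.21 at 24 h and 1.61 ± 0.51 at 48 h (limma, adjusted p = 0.0447, 0.00326 and 0.000194). MTK1, for a methylthioribose kinase, fell by 1.22 ± 0.74 at 48 h (adjusted p = 0.00524). ARD4, a relative of ARD1, went the other way with 0.88 ± 0.77 (adjusted p = 0.0442), and IDI2 did not pass. The ARD1 call at 48 h held under all alternatives tried. Its size did not, as it ran from -2.46 to -0.77 over the 12 other settings, single probes of the gene among them. The 12 h call was lost in 8 of the 12 fits without 1 array, each 12 h sucrose array among them (limma, adjusted p = 0.0824 to 0.263). It was also lost in 5 of 12 other settings. At 24 h it was lost with only the 24 h arrays in the fit (adjusted p = 0.0594). That of MTK1 was lost without 48 h replicate 2 (-0.99, adjusted p = 0.0644) and with only the 48 h arrays in the fit (adjusted p = 0.0879). The ARD4 call was lost in 6 of the 12 fits without 1 array, among them 48 h replicate 1 (1.10, adjusted p = 0.0559) and replicate 2 (0.44, adjusted p = 0.386), and in 5 of 11 other settings. ACO1, SAM2, ARD1 and MTK1 were thus below 0 on each 48 h array, on which ERS1, ERS2 and ETR2 were above 0. These genes were picked by their calls on the same 48 h arrays, which favours such agreement in sign, so it is no separate result. The share of all features on 1 side of 0 on each 48 h array is not given here. Other members differed: ARD4 (0.88) and ACS2 (0.35) had 48 h means above 0, and ETR3 and ETR4 had 48 h arrays on both sides of 0. A link between the ratios of synthesis genes and of receptors was not tested.

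Downstream, 2 genes of the signalling list were on the array. EIL1, for an EIN3-like transcription factor, had 0.88, 1.37 and 0.89 at 48 h, a mean of 1.04 ± 0.28 (limma, adjusted p = 0.00169), after 0.59 ± 0.27 at 24 h (adjusted p = 0.0562) and 0.14 ± 0.25 at 12 h. Its 48 h call was lost only with the 48 h arrays alone in the fit (adjusted p = 0.0673). EIN2, the membrane protein between receptors and EIN3-like factors, stayed between -0.25 and 0.23 in the mean of every group and did not pass. CTR kinase and EBF genes are not analysed here.

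Among the AP2/ERF factors, the family that carries the response to ethylene and to other stresses, 2 of the 6 tested rose at 48 h and none fell, where 12.4% of all features rose and 25.5% passed in either direction. ERF31, also DREB1B, had 0.75 ± 0.26 (limma, adjusted p = 0.0465) and ERF40, also DREB2A, 0.52 ± 0.29 (adjusted p = 0.0462). Both names are known from cold and drought rather than from ethylene. Both calls were near the threshold and were lost in 9 and 8 of the 12 fits without 1 array, among them each 48 h array for ERF31 and 48 h replicates 1 and 2 for ERF40. None of the 8 passed against sorbitol (0 with an unadjusted p under 0.05), where only 0.0515% of all features passed. The highest there was ERF42 at 0.45 ± 0.13, under the ETR4 ratio, which only 32 features exceeded.

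**Figure D5:**
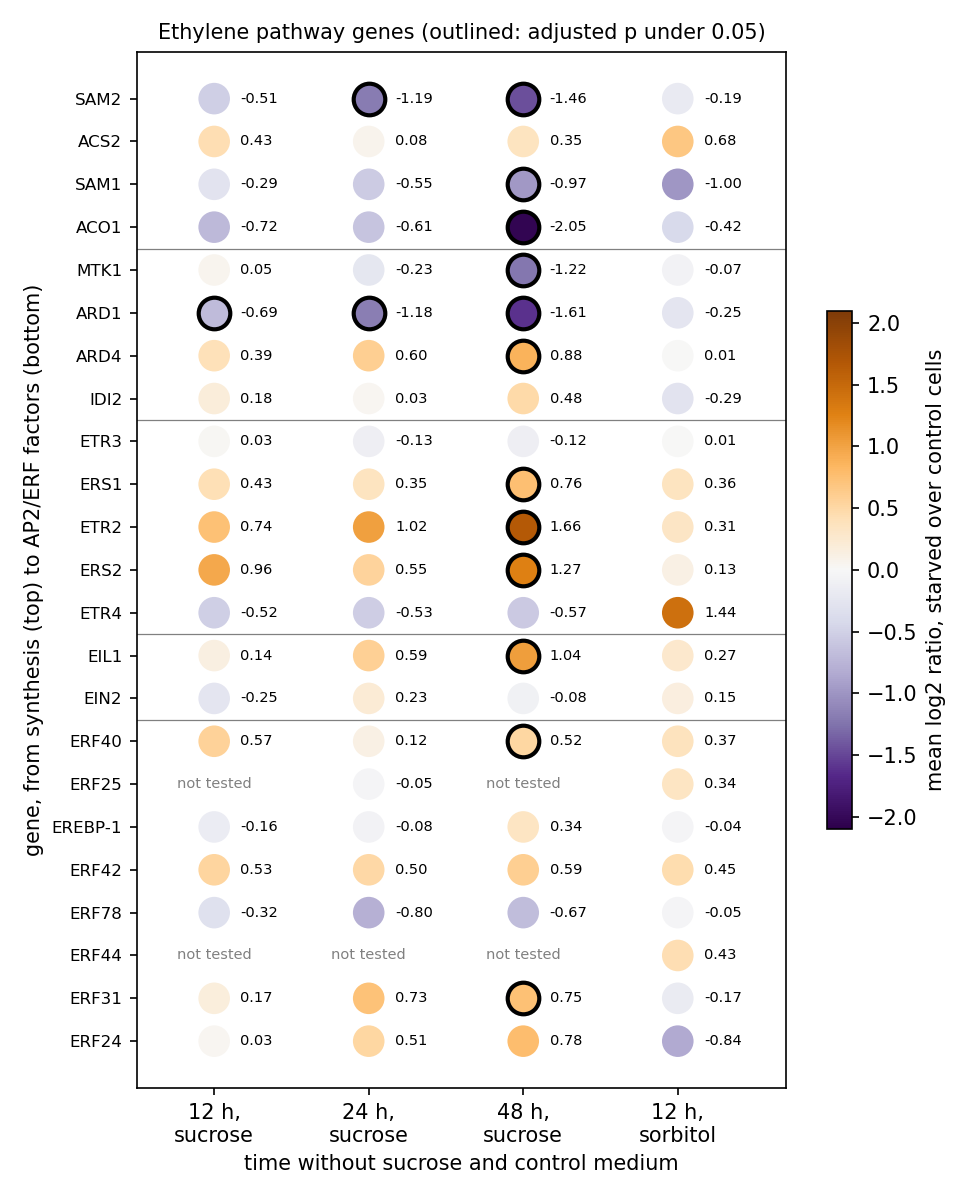
Mean log2 ratio of starved over control cells (colour and printed value, n = 3 arrays) for genes of ethylene synthesis, the methionine cycle, the receptors, signalling and AP2/ERF factors (vertical axis, in that order) by group (horizontal axis), outlined in black where the adjusted p was under 0.05. Synthesis genes such as ACO1 (-2.05) are dark purple at 48 h, ETR2 (1.66) and EIL1 (1.04) are orange, and ETR4 is the most orange gene against sorbitol (1.44).

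Receptors share their histidine kinase ancestry with the two-component genes of cytokinin signalling and of the clock. Of 21 such genes on the array, 1 rose of 19 tested at 12 h, 2 rose and 1 fell of 20 at 24 h, and 5 rose and 2 fell of 17 at 48 h, with a median of 0.24 at 48 h. Over all features 9.09%, 8.6% and 25.5% passed at these times, so the 12 h count lies below that share and those at 24 and 48 h above it. The list was not tested as a set. Against sorbitol limma called none of 21 (3 had an unadjusted p under 0.05, all higher), where 0.0515% of all features passed. In the 12 h sucrose minus sorbitol difference none of 19 passed (2 had an unadjusted p under 0.05, both higher). There 1.46% of all features passed, so both counts are near the shares over all features and do not set these genes apart.

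The clock-related pseudo-response regulator genes PRR95 and PRR73 had 1.74 ± 0.68 and 1.39 ± 0.95 at 48 h (limma, adjusted p = 0.000798 and 0.00658), and PRR95 had already risen at 24 h (1.42 ± 0.47, adjusted p = 0.00626). Without 24 h replicate 2 that earlier call was lost (1.15, adjusted p = 0.0723), and so was that of PRR73 without 48 h replicate 1 (1.17, adjusted p = 0.0516) or 2 (1.07, adjusted p = 0.0849). ORR1, for a response regulator, was even between arrays at 12 h with 1.38, 1.29 and 1.12 (adjusted p = 0.00197). The cytokinin receptor genes HK3 and HK4 went opposite ways at 24 h, with 0.64 ± 0.20 and -0.74 ± 0.32 (adjusted p = 0.0353 and 0.046). The HK4 call was lost without any 1 of the 24 h arrays (adjusted p = 0.0667 to 0.311) and in 8 of the 12 fits without 1 array. That of HK3 was lost in 5 of them, among them 24 h replicates 1 and 2 (adjusted p = 0.154 and 0.227), and each was lost in 3 of 11 other settings. The response regulator gene RR5 had -1.30, -0.64 and -4.28 at 48 h, a mean that replicate 3 carried (adjusted p = 0.0384, and -0.97 without that array, adjusted p = 0.283). The other genes that passed at 48 h were ORR1, HK3, HK4 and the phosphotransfer gene AHP2 (0.90 ± 0.52, adjusted p = 0.0154), of which AHP2 was named after its values were seen.

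Cells in suspension have no defining marker of their own, so markers of other tissues were read instead. Over all features 9.09%, 8.6% and 25.5% passed at 12, 24 and 48 h against sucrose, and 13% fell at 48 h. Of 5 seed storage genes none passed at 12 or 24 h (limma), and 1, GLB, fell at 48 h (-0.79 ± 0.92), carried by replicate 2. Counts so small among 5 genes are near those shares. Of 4 tested photosynthesis genes, PSAH and PSBW rose at each time against sucrose, for example 1.83 ± 0.06 and 2.01 ± 0.71 at 12 h, and CAB1R and PSAG did not pass. Against sorbitol PSAH had 1.02, 1.27 and 1.35, near the ETR4 values, and PSBW -0.01 ± 0.20. The part of a change in plastid genes in the receptor ratios was not tested.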

How the data were processed

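RNA of starved and control cells was compared on 12 Agilent 2-colour arrays. The deposited table of values gave 1 column per array and 21495 probes. The authors deposited natural log ratios, as read from the values themselves: in 12 h replicate 1, 312 values turn into ratios with 1 decimal when read as natural logs (tolerance 1e-05), against 73 when read as log2. The 3 sorbitol arrays gave 0, 0 and 3 against 1, 0 and 0, so their base was taken from the sucrose arrays. They were turned to log2. Centring, normalization and the direction of the ratio were not given in the sources used here, and the ratio was read as Cy5 over Cy3, per the labels. Array medians were -0.03 to 0.11. Scanner intensities were not used, so signal over background is unknown.

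Probes were named through GEO's platform annotation and a RefSeq gene table (ASM3414082v1), in which 100% of gene IDs were found. Probes of 1 gene were averaged, giving 19454 features. Limma 3.58.1 in R 4.3.3 (lmFit, eBayes) fitted 4 group means over 12 arrays. A feature with a blank on an array of a group compared was not tested there. All p-values are two-sided and were adjusted over all features by the Benjamini-Hochberg method, at a threshold of 0.05. Fits were tested on simulated data. Sensitivity to 11 other choices and to leaving out each array was computed.

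The members and gene lists were chosen with earlier results of these data known. Named pathway genes are up to 3 called members with the largest ratios per list and group, and likeness named the 5 genes nearest to ETR4 and 2 for each other receptor. Deviations of same-numbered arrays correlated between -0.19 and 0.57, and over 0.1 in all 3 pairs only for 24 with 48 h (0.57, 0.44 and 0.49), so numbers were taken to pair only these, from the data. Tables used pandas 2.3.3 and numpy 2.4.6, and plots matplotlib 3.10.9, in Python 3.11.15.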

Additional observations from a re-analysis of the deposited data

Results flagged for a closer look

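ETR4 was the only 1 of 44 genes on the receptor and pathway lists with a tested difference between groups that passed. Its 12 h ratio against sucrose minus that against sorbitol was -1.96, with 3 of 3 sucrose arrays below 0 and 3 of 3 sorbitol arrays above 0. In this difference 1.46% of all 18260 features passed, so 1 passing gene on these lists is near that share. Blanks left 6 of 8 AP2/ERF genes and 19 of 21 other two-component genes tested in it. The test of the difference itself gave an adjusted p of 0.0301 in limma, and from 2.76e-05 to 0.0439 under the alternatives other than leaving out 1 array. Without 1 array of another group the limma adjusted p was 0.0129 to 0.0481. The difference missed 0.05 when any 1 of its own 6 arrays was left out.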

How the results depend on the processing

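Of 923 values of the receptors under an alternative, 845 kept their direction and their side of the threshold, 15 lost a call, 15 gained one and 48 changed sign, none of them a called value. The cause was not tested. The ETR4 difference of -1.96 passed in each alternative that kept all arrays, at -2.90 with scale and -3.65 with quantile normalization. It also passed with the replicate block (adjusted p = 0.0261), which changed no call of a receptor and moved the count of features from 12 to 48 h from 1 to 4. Paired within the 24 and 48 h arrays, the block moved the count from 24 to 48 h from 0 to 1. By number 7 of 12 arrays correlated best with their own. At 48 h, ERS1 (0.76) and ERS2 (1.27) lost their calls with only the groups compared or without the sorbitol arrays, ERS2 also with array weights (0.98), and ETR2 (1.66) with only the groups compared. ETR2 at 24 h passed with scale (0.87) and quantile (0.86) normalization and with array weights (1.01). Against sorbitol, ETR4 passed with scale (2.45) and quantile (3.19) normalization, array weights (1.41) and only its own arrays (1.44), and so did ERS1 (0.62, 0.71, 0.37 and 0.36). ETR2 passed there with array weights (0.32) and only its own arrays (0.31). The ERS1 sucrose minus sorbitol difference turned to -0.27 with scale and -0.35 with quantile normalization. Differences of ETR4 between times turned to 0.019 from 12 to 24 h with centred arrays, to 0.15 and 0.13 from 24 to 48 h and to 0.034 and 0.053 from 12 to 48 h with scale and quantile normalization. ETR3 turned on probe 250 to -0.15 at 12 h, -0.27 for sucrose minus sorbitol, 0.049 from 12 to 24 h and -0.28 from 24 to 48 h, and on probe 18366 to 0.13 at 48 h and -0.10 against sorbitol. With centred arrays it turned to -0.0033 for sucrose minus sorbitol and -0.0043 from 24 to 48 h, and for the latter to -0.070 with scale, -0.078 with quantile normalization and -0.13 with array weights.

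Counts of features called depended on the settings. At 12 h, 1660 became 815 with only the groups compared, 599 without the sorbitol arrays and 1083 with trend and robust eBayes. At 24 h, 1634 became 368, 679 and 925, and 6283 with array weights. At 48 h, 4307 became 890 and 2600 in the first pair of these settings, and 2700 with array weights. Against sorbitol, 10 became 3013 with scale and 3943 with quantile normalization, 7955 with array weights, 6979 with only its own arrays and 2 with trend and robust eBayes. For sucrose minus sorbitol, 266 became 1423, 2213, 1741, 851 and 68 in the same order, and from 12 to 48 h, 1 became 2 with scale normalization, 6 with array weights and 0 with only the groups compared or without the sorbitol arrays. Calls on the ethylene lists (2 at 12 h, 5 at 24 h, 16 at 48 h and 0 against sorbitol) became 1, 8, 12 and 10 with scale normalization, 5 and 13 at 12 and 24 h with array weights, 1, 0, 4 and 21 with only the groups compared, and 1 and 3 at 12 and 24 h without the sorbitol arrays or with trend and robust eBayes. Against sorbitol they became 16 with quantile normalization and 23 with array weights. For the 19 named pathway results, 349 values under an alternative kept their call, 92 lost it and none changed sign.

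Leaving out 1 array at a time gave the following ranges. ERS1 ran from 0.66 to 0.82 at 48 h, -0.13 to 0.31 for sucrose minus sorbitol and -0.31 to 0.13 from 12 to 24 h. ERS2 ran from 0.69 to 1.66 at 48 h, -0.87 to 0.11 from 12 to 24 h and -0.27 to 0.82 from 12 to 48 h. ETR2 ran from 0.75 to 1.27 at 24 h and 1.11 to 2.28 at 48 h. ETR3 had -0.16 to 0.36 (12 h), -0.24 to 0.047 (24 h), -0.23 to 0.032 (48 h), -0.037 to 0.050 against sorbitol, -0.17 to 0.35 for sucrose minus sorbitol, -0.49 to 0.036 from 12 to 24 h, -0.17 to 0.16 from 24 to 48 h and -0.48 to 0.038 from 12 to 48 h. ETR4 ran from -2.10 to -1.78 for sucrose minus sorbitol, -0.30 to 0.28 from 12 to 24 h, -0.34 to 0.38 from 24 to 48 h and -0.35 to 0.37 from 12 to 48 h. Counts of features were 382 to 2096 (12 h), 515 to 2641 (24 h), 1503 to 4791 (48 h), 0 to 22 against sorbitol, 23 to 385 for sucrose minus sorbitol and 0 to 23 from 12 to 48 h, and calls on the ethylene lists from 1 to 3, 2 to 7 and 9 to 17 at 12, 24 and 48 h. A left-out array leaves 2 in its group, whose spread is borrowed from all groups.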
